A study of Mus musculus with 3 samples.

Results

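Bcl11b is the gene described here, through every listed crosslink position that the authors assigned to its name, whatever the segment. These were 1266 of the 462392 positions in the deposited list, and they held 3281 of its 814493 counts, or 0.403%. The positions come from individual-nucleotide resolution crosslinking and immunoprecipitation (iCLIP), which uses ultraviolet light to join a protein to the RNA it touches and reads out the joined base. Thymocytes of C57BL/6JBabr mice, described as total naive thymocytes from thymus, were irradiated with 300 mJ/cm2. RNA was then recovered with an antibody against Brf1/2, with ZFP36L1 as the stated target. The name of the antibody covers more than 1 protein, so the counts cannot be assigned to ZFP36L1 alone. The series has 1 library of DCKO cells, the double conditional knockout of Zfp36l1 and Zfp36l2, and 2 libraries of WT cells. The sources used here do not give the driver of the deletion or its completeness. Each position carries a single value, and the libraries behind it are not named, so DCKO and WT could not be compared at Bcl11b and replicate errors cannot be given. The RNA came from a cell population, in which fewer cells of a type and less RNA per cell cannot be told apart. All 7 T cell markers checked had listed counts (4698 in sum), against sums of 9, 18, 7 and 7 for 4 B cell, 3 myeloid, 3 erythroid and 3 thymic epithelial markers, with 1 marker of each of these 4 lists at 0. A single T cell marker had 2270 of the 4698. These are counts of crosslinks and do not measure the share of each cell type. The part of the other cell types in the Bcl11b counts was not tested.

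BCL11B is a zinc finger transcription factor that is switched on as thymic progenitors commit to the T cell lineage, and it keeps progenitor and innate lymphoid programmes silent afterwards. ZFP36L1 belongs to a family of zinc finger proteins that bind AU-rich elements in 3′ untranslated regions (3′ UTRs) and recruit the deadenylation machinery, which shortens the poly(A) tail and promotes mRNA decay. The core of such an element is written here in DNA letters as TATTTA.

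The sequences that carried the counts are shown first. The 3′ UTR of Bcl11b lies at positions 107910403 to 107915399 of chromosome 12 on the minus strand (GRCm38, GENCODE vM21), is 4997 nt long and belongs to exon 4, the last of 4 exons. Positions in it are counted from 1 at the base after the stop codon. It holds 3 copies of TATTTA, each shown with its flanks in DNA letters, 5′ to 3′, and with the motif in capitals. They are given because all 3 had sites nearby. All sequences here were read from the RefSeq genome GRCm38.p6 on the minus strand, and motifs were searched on that strand only, since it is the strand of the transcript.
TATTTA at 249 to 254 (chr12:107915146-107915151): gtgcaataatttctgTATTTAttgggtttt
TATTTA at 4699 to 4704 (chr12:107910696-107910701): cagcaagtttggagcTATTTAttattgctt
TATTTA at 4843 to 4848 (chr12:107910552-107910557): atggcttagtaaaaaTATTTAttgtttctt

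The next sequences are 30 nt around the highest position of other clusters, with capitals at bases that had a count of at least 5. The first is from the cluster with the highest summed count in the gene, and of the 6 only that in intron 2 has TATTTA, in lower case and next to the capitals.
3′ UTR, 439 as highest position (chr12:107914946-107914975): TTTTAAATTATaATTTTGTgTgTGTGTGTg
3′ UTR, 307 as highest position (chr12:107915078-107915107): cctattattaTTAtTaTttcTgttTaaatt
3′ UTR, 4645 as highest position (chr12:107910740-107910769): tctatTacgTatcgTatgagcttttgttgt
5′ UTR (chr12:108003402-108003431): agcaacagcagtttTataaTttattTtagc
Intron 2 (chr12:107974953-107974982): ttacttatttaATTTTTTAttttttttttt
Intron 3, ending on the first base of exon 4 (chr12:107917414-107917443): ctctgcctttcttcTttatgtttccccagg

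Counts of Bcl11b were densest in the 3′ UTR. Positions for which the authors gave an FDR under 0.05 are called sites here, which holds for 502 of the 1266 Bcl11b positions (39.7%), against 30.7% of the whole list. The 3′ UTR held 229 sites with a summed count of 1413, which was 68.4% of the site counts of the gene (95% Wilson interval 66.4 to 70.4). Introns held 260 sites with 602 counts (29.1%, interval 27.2 to 31.1), the 5′ UTR 11 sites with 41 counts and coding sequence 2 sites with 10 counts. These intervals, like the others below, cover counting error only and treat neighbouring positions as independent. Among all Bcl11b positions a count of 2 was found at 550, a count of 1 at 489 and a count of 3 at 58. Part of the pooled counts may therefore carry double weight, which was not tested, and summed counts would then overstate the number of events and the intervals would be too narrow even as counting error.

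Per kb of sequence, site counts were 283 in the 3′ UTR, 89.3 in the 5′ UTR, 7.07 in introns and 3.77 in coding sequence. The 3′ UTR was thus 40.0 times as dense as introns and 75.0 times as dense as coding sequence in site counts. Counting every listed position gave 19.7 and 28.5 times. The count needed to be called a site differed by segment within the gene. In the 3′ UTR the lowest extended value of a site, the summed count within 15 nt, was 19 and the highest of the other positions was 18, whereas in introns these values were 5 and 4. In Bcl11b 60.6% of 3′ UTR positions were sites, against 37.8% of 3′ UTR positions in the list, and 30.3% of intron positions, against 28.8%. The shares were 68.8% in the 5′ UTR, against 21.1%, and 14.3% in coding sequence, against 19.4%.

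**Figure D1:**
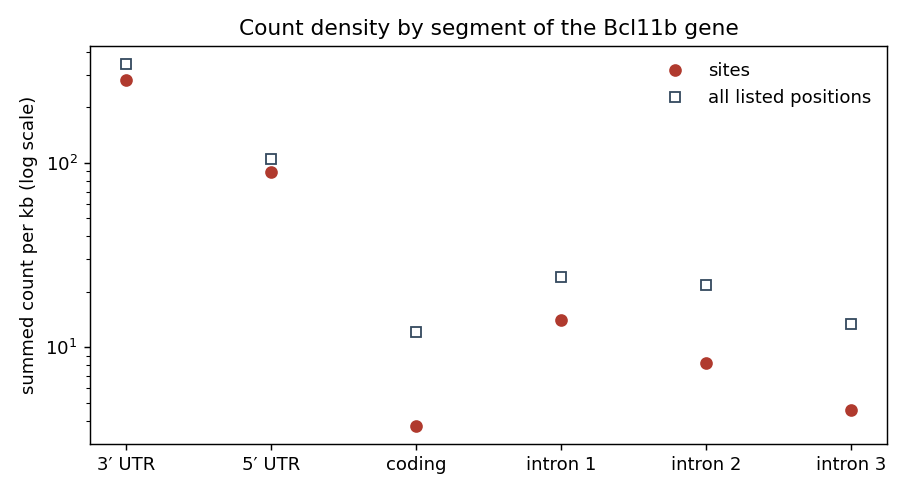
Summed count per kb of sequence (log scale) in each segment of the Bcl11b gene, for sites (filled circles) and for all listed positions (open squares). The 3′ UTR had the highest density, 283 site counts per kb, and coding sequence the lowest, 3.77.

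The 3′ UTR counts lay at its 2 ends. The first 500 nt held 109 sites and 945 counts, 66.9% of the site counts (interval 64.4 to 69.3), and the last 500 nt held 86 sites and 364 counts, 25.8% (23.5 to 28.1). The 3997 nt between them held 34 sites and 104 counts, 7.36% (6.11 to 8.84). In site counts per kb this was 1890 at the start, 26.0 in the middle and 728 at the end. Over all listed positions the middle held 364 of the 1717 counts, or 21.2%, at single-position counts of at most 9.

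In bins of 100 nt, 12 of the 50 bins had a site and 11 had no listed count. Only 4 bins exceeded 100 counts. The bin from 401 to 500 had 523 counts, the bin from 201 to 300 had 346, the bin from 4701 to 4800 had 209 and the bin from 4601 to 4700 had 114. The median bin had 6 counts.

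**Figure D2:**
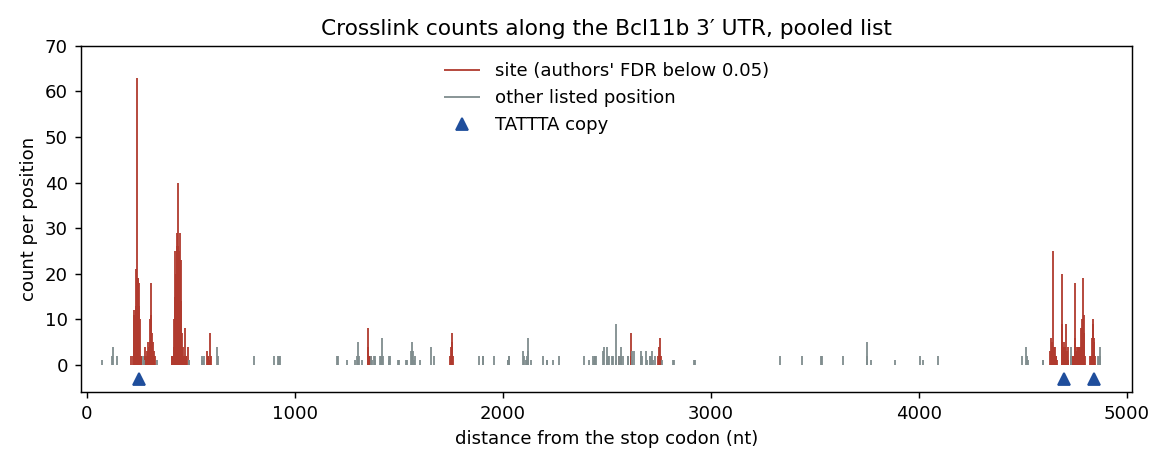
Count at each listed position against its distance from the stop codon along the 3′ UTR of Bcl11b, with sites in red, other listed positions in grey and the 3 copies of TATTTA as triangles. The high counts stand in a block within 500 nt of the stop codon, where the highest position has 63, and in a block near the 3′ end, where it has 25.

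The block near the stop codon lies beyond the end of the shorter annotated transcripts. GENCODE vM21 gives 3 transcripts of Bcl11b, of which Bcl11b-202 and Bcl11b-203 end at position 107915222 of chromosome 12, or 178 nt into the 3′ UTR. Before that point there were 0 sites and 9 listed counts. After it there were 1708 listed counts, 99.5% of those in the 3′ UTR. The site nearest to the stop codon was at 213.

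Sites of the 3′ UTR joined into 12 clusters when gaps of at most 15 nt were bridged, and the 3 with the highest summed count held 77.6% of the site counts. The highest, from 409 to 484 (chr12:107914916-107914991), had 53 sites and 521 counts, 36.9% of the total. It had no TATTTA within 20 nt of its ends. Its highest position, 439, had a count of 40, and positions 431 and 449 had 29 each.

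That cluster covers an AT-rich stretch followed by a TG repeat of 14 nt, from 441 to 454. The part before the repeat had 326 counts, 62.6% of the cluster, the repeat itself had 153 (29.4%) and the part after it had 42 (8.06%). Of the counts in the repeat, 72.5% stood on a thymidine. The 3′ UTR has 5 other TG repeats, 6 or 7 nt long. None of these 5 had a site within 20 nt, and 3 had no listed count there.

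The second cluster, from 213 to 260 (chr12:107915140-107915187), had 32 sites and 320 counts around the first TATTTA. Position 240 had 63 counts, the highest in the gene, and the next highest in the cluster was 237 with 21. The third, from 4687 to 4802 (chr12:107910598-107910713), spread 256 counts over 61 sites and 116 nt and spanned the second TATTTA and a pair of T runs. Its highest positions were 4687 with 20, 4789 with 19 and 4753 with 18.

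Lower clusters followed. The cluster from 280 to 327 had 104 counts and a highest position, 307, with 18, in a stretch of ATT units with no TATTTA within 20 nt. The cluster from 4633 to 4663 had 63 counts, of which 25 stood at 4645 alone. The cluster from 4823 to 4847, which reaches the third TATTTA, had 45 counts and a highest count of 10. Those from 1748 to 1759 and from 1350 to 1366, both in the middle of the 3′ UTR, had 33 and 21 counts. The other 4 clusters had between 2 and 20 counts. When every listed position was joined in the same way, 60 clusters formed.

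**Figure D3:**
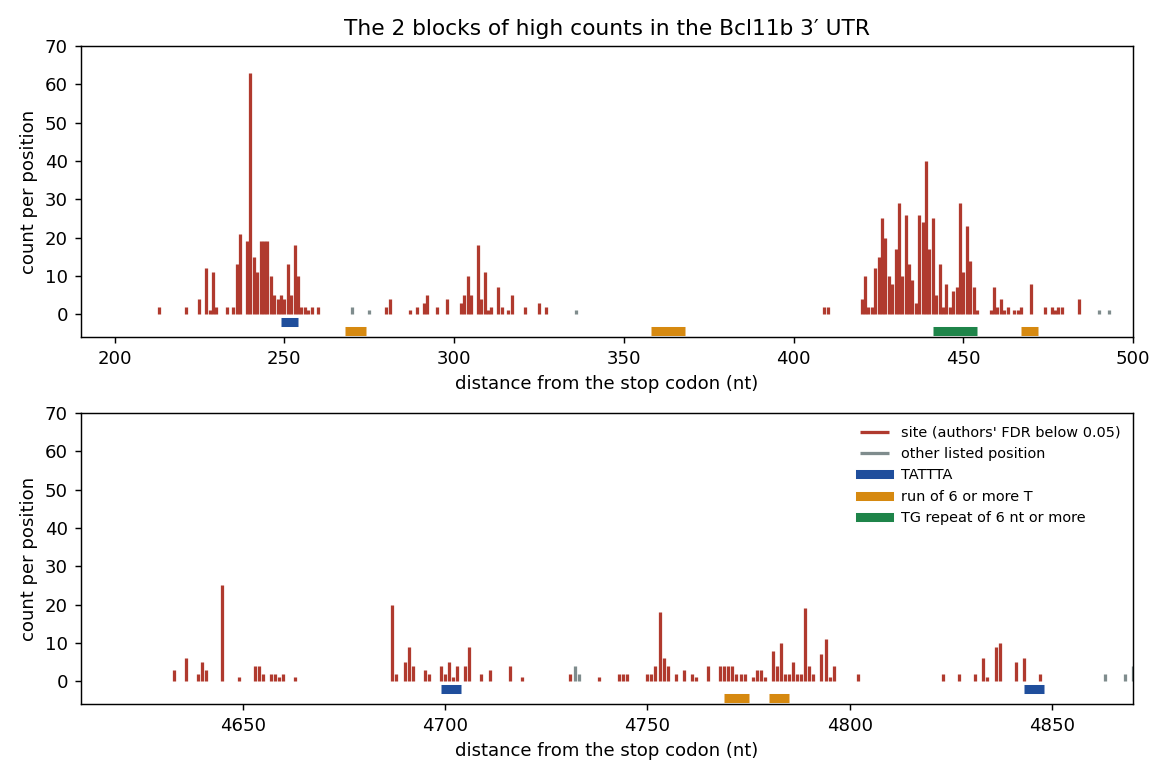
Count at each listed position in the block near the stop codon (upper panel) and in the block near the 3′ end (lower panel), by distance from the stop codon, with TATTTA in blue, runs of 6 or more T in orange and TG repeats in green below the axis. The cluster at the TG repeat holds 521 site counts and has no TATTTA, and the T run at 358 to 368 has none of the listed counts.

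Counts near TATTTA were high for the little sequence it covers. Positions with a whole TATTTA inside the 20 nt on either side, and so at most 15 nt from the motif, make up 2.16% of the 3′ UTR, and they held 50 sites and 409 of the 1413 site counts, 28.9% (interval 26.6 to 31.4). Counts per base were 18.4 times those of the rest of the 3′ UTR, and 8.87 times with windows of 50 nt. The share was 11.9% with windows of 10 nt and 35.2% with windows of 50 nt. With 20 nt beyond each end of the motif, a setting added after seeing the data, it was 30.3% (428 counts). Without the cluster at the TG repeat, left out after seeing the data, the share near TATTTA was 45.9%. That cluster has no TATTTA within 20 nt, so leaving it out could only raise the share. All 3 copies are also TATTTAT. The copy at 249 had 284 site counts in these windows, that at 4699 had 84 and that at 4843 had 41.

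The counts stood mostly upstream of the motif. Of the 409, 298 (72.9%) were on bases before TATTTA, 79 on the motif itself and 32 after it. The highest position lay 9 nt before the first base of the copy at 249, 12 nt before that of the copy at 4699 and 6 nt before that of the copy at 4843. Upstream bases held 77.5% of the counts at the copy at 249, 53.6% at that at 4699 and 80.5% at that at 4843.

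**Figure D4:**
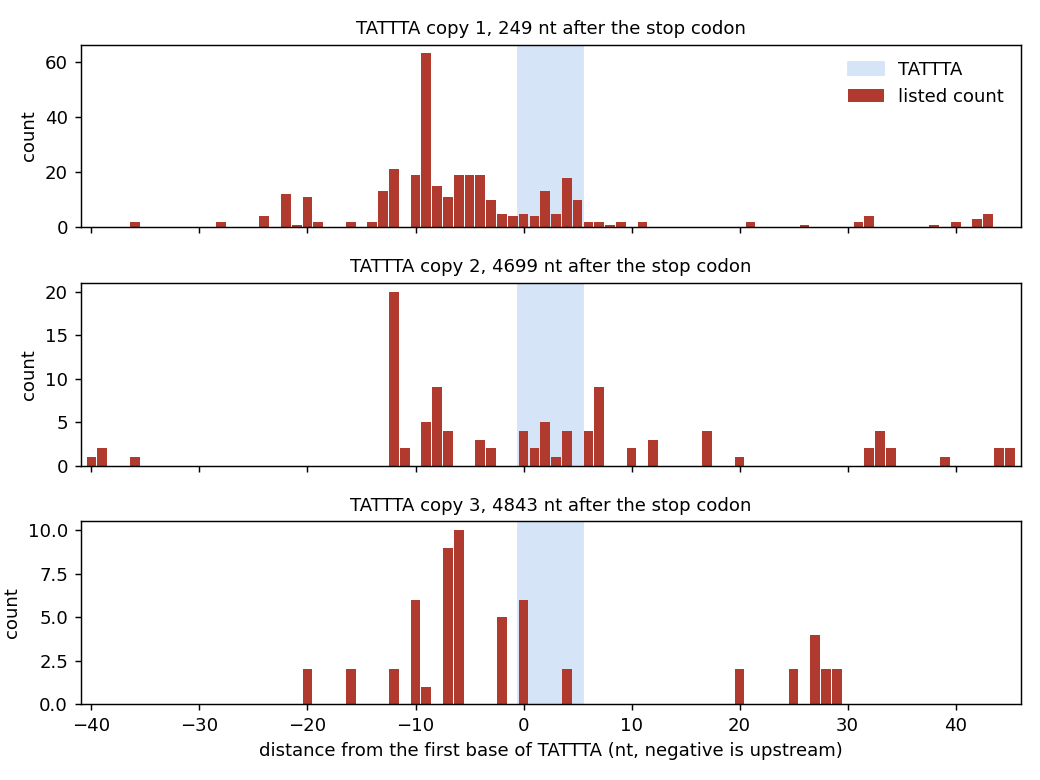
Listed count at each base around the 3 copies of TATTTA in the Bcl11b 3′ UTR, by distance in nt from the first base of the motif (shaded), with negative distances upstream. The highest counts, 63, 20 and 10, stand 9, 12 and 6 nt before the motif.

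Outside TATTTA, the shorter form ATTTA did not have sites at most of its copies. Of the 12 copies, 3 lie inside TATTTA. Of the 9 others, 3 had sites within 20 nt in the same sense of a whole motif, with at most 34 site counts, and 6 had none. The ATTTA at 4987, close to the 3′ end, had 0 listed counts within 20 nt.

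Runs of T also differed among themselves. The 3′ UTR has 16 runs of 6 to 14 T, and 5 of them had sites within 20 nt. For these runs and the TG repeats the 20 nt are counted beyond each end, a wider window than that for the motifs, so that the values are not comparable between them. The highest were 157 site counts at the run at 4769, 140 at the run at 467, whose window overlaps that of the TG repeat, and 122 at the run at 4780, which shares much of its window with 4769. The run of 11 T at 358 had 0 listed counts within 20 nt, and the run of 14 T at 3773 had 1. Positions with a whole TTTTTT inside the 20 nt on either side, on the strand of the transcript, cover 11.6% of the 3′ UTR and held 18.7% of the site counts. Those near TGTGTG in the same sense cover 4.48% and held 31.9%, a motif chosen after the cluster at the repeat was seen. TATTTA windows overlap some of those of TTTTTT.

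These motifs are common in 3′ UTRs of this length. Of 1012 mouse protein-coding genes with a 3′ UTR of 4000 to 6000 nt, 90.7% hold TATTTA, with a median of 3 copies, 99.1% hold ATTTA (median 9), 66.9% TATTTAT (median 1), 95.7% TTTTTT (median 11, overlapping) and 95.5% TGTGTG (median 4). Bcl11b has 3, 12, 3, 49 and 10 copies of these motifs. Over the 3′ UTRs of 21004 genes, 2.42% of bases lie as near to TATTTA as the windows used here. Of the polyadenylation hexamers AATAAA and ATTAAA, Bcl11b has 5 each, and 97.8% and 90.9% of these 1012 genes hold them. The last AATAAA starts at 4974, 23 nt before the annotated end, and had 0 listed counts within 20 nt.

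Thymidine was the usual base under a count. It took 65.5% of the 3′ UTR site counts (62.9 to 67.9), against 31.7% of the bases. Adenine took 18.5% against 25.7%, guanine 9.27% against 21.4% and cytosine 6.79% against 21.2%. In introns 57.1% of all listed counts stood on T, which makes up 26.9% of intron bases.

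High counts in the 3′ UTR were near TATTTA at a larger share of positions than low ones. Of 46 positions with a count of 10 or more, 15 were within 20 nt of it, 32.6% (20.9 to 47.0). Of 43 positions with counts of 5 to 9 the share was 25.6%, of 64 with counts of 3 to 4 it was 14.1%, of 152 with a count of 2 it was 7.89% and of 73 with a count of 1 it was 5.48% (2.15 to 13.3). The positions at a count of 10 or more fall into few clusters, so that they are not independent. Many of them lie in the cluster at the TG repeat, which has no TATTTA within 20 nt. Among these are 439 with a count of 40, and 431 and 449 with 29 each. The same shares by count were not computed for other motifs.

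The 5′ UTR had a single compact cluster. Its 11 sites lay between 108003400 and 108003420 of chromosome 12 and had 41 counts. The highest position, 108003417, had 12, and positions 108003406 and 108003412 had 7 and 5. All lie in the annotated 5′ UTR of Bcl11b-201, 274 nt before the start codon at the highest position. The cluster spans 108003414, where transcripts Bcl11b-202 and Bcl11b-203 start. Of its counts, 90.2% stood on T, in a sequence with 1 ATTTA and no TATTTA within 20 nt.

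Coding sequence, which encodes the zinc fingers, was nearly free of counts. Its 2652 nt had 14 listed positions with 32 counts, at most 6 at one position. Exon 4, with 2012 coding nt, had 5 positions and 11 counts and no site, although the adjoining 3′ UTR in the same exon had 1717 listed counts. Exon 2 had 19 counts over 366 nt, and the 58 coding nt of exon 1 had 0, where up to 3 counts are allowed by a count of 0. The 2 coding sites were in exon 2, at its last base (107989465, count 4) and 15 nt before it (107989480, count 6), at the splice donor of intron 2. The position with 4 is named because only these 2 exist, after its value was seen.

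Introns carried many low counts. Of 858 intron positions, 92.5% had a count of 1 or 2 and 7 had 10 or more, against 59.5% and 46 positions in the 3′ UTR. The density of listed counts was 24.0 per kb in intron 1, 21.9 in intron 2 and 13.5 in intron 3, and that of site counts 14.0, 8.27 and 4.58. Intron 3 is the longest, at 48257 nt.

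Counts of at least 10 occurred at 3 places in introns. In intron 2, a cluster of 19 sites at chr12:107974953-107974982 had 107 counts, with 14 at position 107974968 and 11 to 13 at 4 adjoining positions. It lies 9081 nt before exon 3 in soft-masked, T-rich sequence and has 1 TATTTA within 20 nt. In intron 1, a cluster at chr12:108001991-108002026 had 53 counts, with 10 at position 108001998, in a run of T. This cluster also has 1 TATTTA within 20 nt. In intron 3, a cluster at chr12:107917423-107917435 had 29 counts, of which 14 stood at 107917429, 15 nt before exon 4.

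The last of these is in the pyrimidine-rich stretch at the splice acceptor, the sequence that the splicing machinery reads before the final exon. The last 50 nt of intron 3 held 29 counts, against 2 in the last 50 nt of intron 2 and 5 in those of intron 1. In all, 52 intron clusters were formed, with a median of 7 counts. TATTTA lay within 20 nt of 6 of them, TTTTTT of 15 and TGTGTG of 11, with overlaps, and 26 had none of these. More than 50% of the span was soft-masked in 33 of the 52. The shares of all intron sequence that lie as near these motifs, or are soft-masked, are not given here. These counts of clusters therefore cannot be called high or low. Soft-masking was not confined to introns. In the 3 clusters of the 3′ UTR with the highest summed counts, 60.5%, 16.7% and 44.8% of the span was soft-masked, in that order. In the 5′ UTR cluster it was 100%. The sources used here do not say how reads that fit several places in the genome were assigned.

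All 1266 positions were on the minus strand, and their segment labels matched GENCODE vM21 at each of them. On the plus strand of the gene, and within 1000 nt downstream of its 3′ end, 0 positions were listed, where a count of 0 allows up to 3 counts.

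Among 49 protein-coding genes with at least 100 counts over 3′ UTR sites, Bcl11b was the one with the most clusters, 12 against a median of 3 over the set, and with the most sites, 229. Its 10 highest positions held 22.1% of the site counts, against a median of 46.2% over the set (quartiles 39.3 and 54.1), and 34 positions were needed to reach 50% of its counts, against a median of 12. The share at 10 positions falls where a gene has more sites, and the 3′ UTR of Bcl11b is longer than that of 43 of the genes (median 2440 nt). These places in the set are descriptions without a test.

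The ends of the 3′ UTR held more of the site counts in Bcl11b than in most of these genes. The opening 10% of its length had 66.9% of the site counts, against a median of 0%, and 1 gene, Nabp1, was higher at 100% (named after its value was seen). The closing 10% had 25.8%, against a median of 0%, and 8 genes were higher. The part between them had 7.36%, against a median of 96.0%, and 2 genes, Nabp1 and Pank3, were lower. Over all listed positions the middle of the Bcl11b 3′ UTR had 21.2% of its counts. Shares over all listed positions were not compared between genes, nor was the count needed to be called a site. Pank3, with a 3′ UTR of 5827 nt, had 41.5% in the opening 10%, 53.8% in the closing 10% and 4.72% between them. It too was named after its values were seen. The share near TATTTA, 28.9%, was below the median of 41.2% (quartiles 16.9 and 70.7), and 31 genes were higher. These shares are not adjusted for how much of each 3′ UTR lies near the motif. That was 2.16% of bases in Bcl11b and from 0% to 14.1% over the set.

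Rag1, Actb and Satb1 had the nearest summed site counts, 1422, 1181 and 1034 beside 1413 in Bcl11b. Rag1 encodes a subunit of the antigen receptor recombinase, Actb cytoplasmic actin and Satb1 a chromatin organiser of thymocytes. Site counts per kb of 3′ UTR were 283 in Bcl11b, 419 in Rag1, 1729 in Actb and 279 in Satb1, which placed Bcl11b at rank 11 of 2101 genes by this density and at rank 2 by summed count. The 10 highest positions held 22.1% in Bcl11b, 41.5% in Rag1, 33.3% in Actb and 24.0% in Satb1. The 3′ UTR between its opening and closing 10% held 7.36% of the site counts in Bcl11b, 92.3% in Rag1, 100% in Actb and 99.2% in Satb1. Thymidine held 65.5% of the counts in Bcl11b, 66.7% in Rag1, 90.6% in Actb and 65.2% in Satb1. These densities are not adjusted for the abundance of each mRNA.

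**Figure D5:**
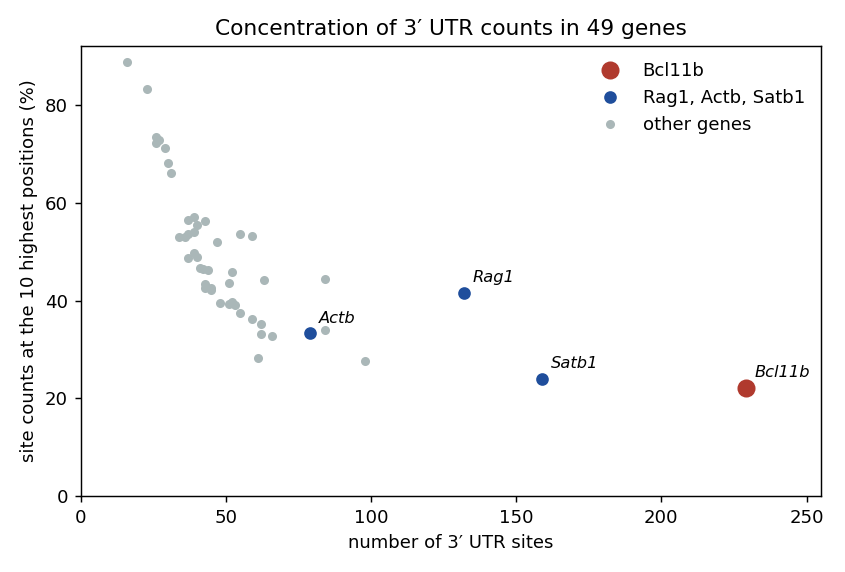
Share of 3′ UTR site counts held by the 10 highest positions against the number of 3′ UTR sites, one point for each of 49 genes with at least 100 counts. Bcl11b, with 229 sites and 22.1%, lies at the right and lower edge, next to Satb1 with 159 sites and 24.0%.

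By its split over segments, Bcl11b was most like Edem1. Likeness was the Euclidean distance between the shares of listed counts in 3′ UTR, coding sequence, 5′ UTR and introns, among 141 genes with at least 500 counts in the pooled list. Bcl11b had 52.3% of its listed counts in the 3′ UTR and 45.2% in introns, against medians of 6.15% and 86.6% over these genes. Edem1 had 49.6% and 45.2% (distance 5.19 percentage points), Med13 38.2% and 53.8% (17.9), Atp13a3 30.3% and 57.6% (27.7), Stk4 30.9% and 65.5% (29.7) and Satb1 23.6% and 68.4% (37.2).

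Other genes of T lineage commitment had fewer 3′ UTR site counts than Bcl11b. This follows from its rank 2 by summed count, since Rag1, the gene above it, is not in the list. Of a list of 34, 29 had a listed position and 13 of these had a 3′ UTR site (44.8%), against 17.7% of all 12541 protein-coding genes with a listed position. The median summed site count was 0 in the list and among all these genes. After Bcl11b with 1413, the highest were Satb1 with 1034, Notch1, the receptor that starts the programme, with 223, and the transcription factors Gata3 with 99, Ets1 with 80, Ikzf1 with 71 and Lef1 with 64. Bcl11a, the paralogue of Bcl11b that acts in progenitors and B cells, had 3 listed counts and no 3′ UTR site. Tcf12, an E protein, had 1929 listed counts but only 9 in its 3′ UTR and no site there.

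Genes of the complexes that BCL11B works with had between 4 and 75 site counts where they had a site. Of 29 subunits and cofactors of NuRD, BAF and related complexes, 28 had a listed position and 13 of these had a 3′ UTR site (46.4%, against the same 17.7%). Rbbp4, a histone-binding subunit, had 75 site counts, the BAF subunits Smarcc1, Arid1a and Smarcc2 had 52, 44 and 18, the deacetylase Sirt1 had 19 and the corepressor Rcor1 had 14. Neither list is adjusted for transcript abundance.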

How the data were processed

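The authors deposited a single list of crosslink positions from iCLIP of thymocytes. Its signed counts per position, with the strand as sign, and the deposited FDR are treated here as scores, and the absolute value was used. Reads were 100 nt from single ends, per the labels' protocols, and the submitters' processing notes name Bowtie and GRCm38. The sources used here do not say whether the random bases of the primers served to merge duplicate reads. The deposited p-value was not used. The deposited extended value equalled the sum within 15 nt at 1264 of 1266 Bcl11b positions. Depth per library is unknown, and the design's plan for values per library could not be carried out.

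Positions were shifted by 1 to count from 1, compared with GENCODE vM21, and read on the RefSeq genome GRCm38.p6 with Python 3.11.15, pandas 2.3.3, numpy 2.4.6, scipy 1.17.1 and matplotlib 3.10.9. For each gene the transcript with the longest 3′ UTR was used. A position was near a motif when the whole motif lay inside the 20 nt on either side of it, for TATTTA at most 15 nt from the motif. T runs and TG repeats were given 20 nt beyond each end. Cluster gaps were at most 15 nt. No test was made, since a pooled list has no replicates. The window and cluster steps were tested on simulated sequences. Alternatives covered the FDR threshold, the segment source, count weights, windows, motifs and gaps. The gene, the lists and the rules were chosen with earlier results of these data known. Genes named are Bcl11b, Rag1, Actb and Satb1, the 5 genes most alike by segment shares, up to 6 members of each list by 3′ UTR site count and members without a site, with 8 clusters of Bcl11b and its highest intron, coding and 5′ UTR positions.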

Additional observations from a re-analysis of the deposited data

Results flagged for a closer look

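Unnamed positions just upstream of Bcl11b carried signal that the rule on the gene name leaves out. On the same strand, 28 positions with a summed count of 51 lay within 1000 nt upstream of the GENCODE start of the gene, between 108003628 and 108003811 of chromosome 12 (GRCm38), above the 3 counts that a count of 0 allows. All 28 were sites by the authors' FDR. The cluster with the highest sum, at 59 to 80 nt upstream, had 17 positions and 36 counts, with at most 5 at one position. The authors labelled these positions intergenic. RefSeq extends Bcl11b to 108004145, so that all 28 lie inside the RefSeq gene. Which transcript they belong to was not tested.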

How the results depend on the processing

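Of 38 alternative values, 18 stayed within the interval of the share or within 1.5 times the value reported, and 20 moved. Of the 18, those with GENCODE segments could not differ, since all labels match GENCODE. All TATTTA copies are TATTTAT, and the share for TATTTAT was equal, with windows that cover 2.10% of the 3′ UTR against 2.16%. An FDR below 0.01 moved none of the 4 values recomputed with it. With 20 nt beyond each end of TATTTA, added after seeing the data, the density ratio was 15.3. With all listed positions, the 3′ UTR share of Bcl11b counts was 52.3%, the share near TATTTA 23.9%, the share of the 10 highest positions 18.2%, the number of clusters 60 and the ratio of intron to 3′ UTR density 0.0508, against 0.0250 for sites. With every site counted once, the 3′ UTR sum was 229, its share 45.6%, the share near TATTTA 21.8% and that of the 10 highest positions 4.37%. With counts of 3 or more, the 3′ UTR share was 79.1% and that of the 10 highest positions 25.3%. The share near the motif was 11.9% with windows of 10 nt and 35.2% with windows of 50 nt, where the density ratio was 8.87. It was 35.1% for ATTTA, 18.7% for TTTTTT, 31.9% for TGTGTG and 45.9% without the cluster with the highest count, the last 2 chosen after seeing the data. Gaps of at most 5 nt gave 19 clusters. By count per kb, Bcl11b had rank 11. Where no value shows the cause, it was not tested. No paired analysis was possible because the list has no value per library, and leaving out a replicate could not be run for the same reason. The low counts of introns and coding sequence limit what can be said of single positions there.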
